A study of Sus scrofa with 9 samples.

Results

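Genes whose signal in the sow mammary gland was highest on the day after farrowing, with lower signals both in late pregnancy and later in lactation, were examined here. They were chosen by their measured signals. Each gene with 1 symbol was read from its brightest probe set by mean log2 signal over the 9 arrays. A gene was a member when its signal was at least 100 in all 3 day 1 pools, when its mean log2 signal on day 1 lay at least 0.6 (1.52-fold) above the mean of each other day, and when all 3 day 1 values lay above the other 6. Symbols with 20 prefixes of large families, such as ribosomal, proteasomal, heat shock and transporter genes, and 11 single symbols were left out by name. This gave 63 genes of 6765 (0.931%), or 1.36% of the 4634 genes that were bright on day 1 and not left out by name. A further 15 genes met the limits and were left out by name, among them the endoplasmic reticulum chaperones HSPA5 and DNAJB11 and the translocon subunit SEC61A1. The same limits applied to the other days gave 394 genes peaking on day -17 and 347 peaking on day 17, and turned round they gave 39 genes lowest on day 1. Because the day 1 values chose the members, their distance from the other days is described below and not tested. The rule set no direction between day 17 and day -17, and that comparison was tested, although holding both days below day 1 limits how far they can lie apart.

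The samples came from 6 Large White sows fed a corn and soybean meal diet under standard management, and each sow gave a biopsy of the right front mammary glands on all 3 days. Day -17 lies in late pregnancy, day 1 is the day after farrowing and day 17 lies in established lactation, with the outer days held to within 2 days. RNA of 2 sows was mixed for each Affymetrix porcine array, so n = 3 pools per day, and the animals of the 3 days are the same. No group carried a genetic change or received an agent, age and parity were not given in the sources used here, and the labels do not say which sows form a pool, so p-values measure the spread between pools.

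Around farrowing the mammary epithelium passes from growth to copious secretion, a change known as secretory activation that follows the fall of progesterone in the presence of prolactin and glucocorticoids. Milk proteins are made on ribosomes docked at the endoplasmic reticulum, folded there with the help of chaperones and disulfide isomerases, and in part given N-linked sugar chains by the oligosaccharyltransferase before vesicles carry them to the Golgi apparatus and the cell surface. The first secretion, colostrum, is rich in immunoglobulins and other defence proteins, and the gland at that time is also reshaping its matrix.

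The deposited signals share 1 scaled mean per array, so every difference is relative to the average signal of the array. Spearman's rho across probe sets lay between 0.954 and 0.976 for pools of 1 day. The arrays also carry 21 control probe sets for E. coli transcripts, usually added in known amounts, and compared with day -17 these had a median difference of 0.44 log2 on day 1 and of 1.28 on day 17. Scaling the arrays to them lowers every log2 difference by 0.43 for day 1 against day -17, by 0.87 for day 17 against day 1 and by 1.30 for day 17 against day -17. The summed signal of 16 genes for milk proteins and the milk fat globule ran from 99090 to 131000 on day -17, from 317500 to 446100 on day 1 and from 647800 to 660900 on day 17. All 17 measured markers of luminal mammary epithelium were above the filter level on at least 1 array. Of these, 15 were bright enough to be tested and 12 were bright on day 1. Their summed signal ran from 20050 to 42440 on day -17, from 30750 to 49870 on day 1 and from 49020 to 52800 on day 17. The summed signal of 15 fibroblast markers ran from 109300 to 162500, from 67520 to 144500 and from 61910 to 68020 on the 3 days in turn. In pooled tissue, fewer cells of a type and less RNA per cell cannot be told apart. None of the 63 members was on any of the 12 lists of cell type markers. These lists held few genes bright on day 1, at most 15 (fibroblast) and 0 for T and NK cells and for skeletal muscle. Since only 1.36% of all bright genes were members, nothing is read from their absence.

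**Figure D1:**
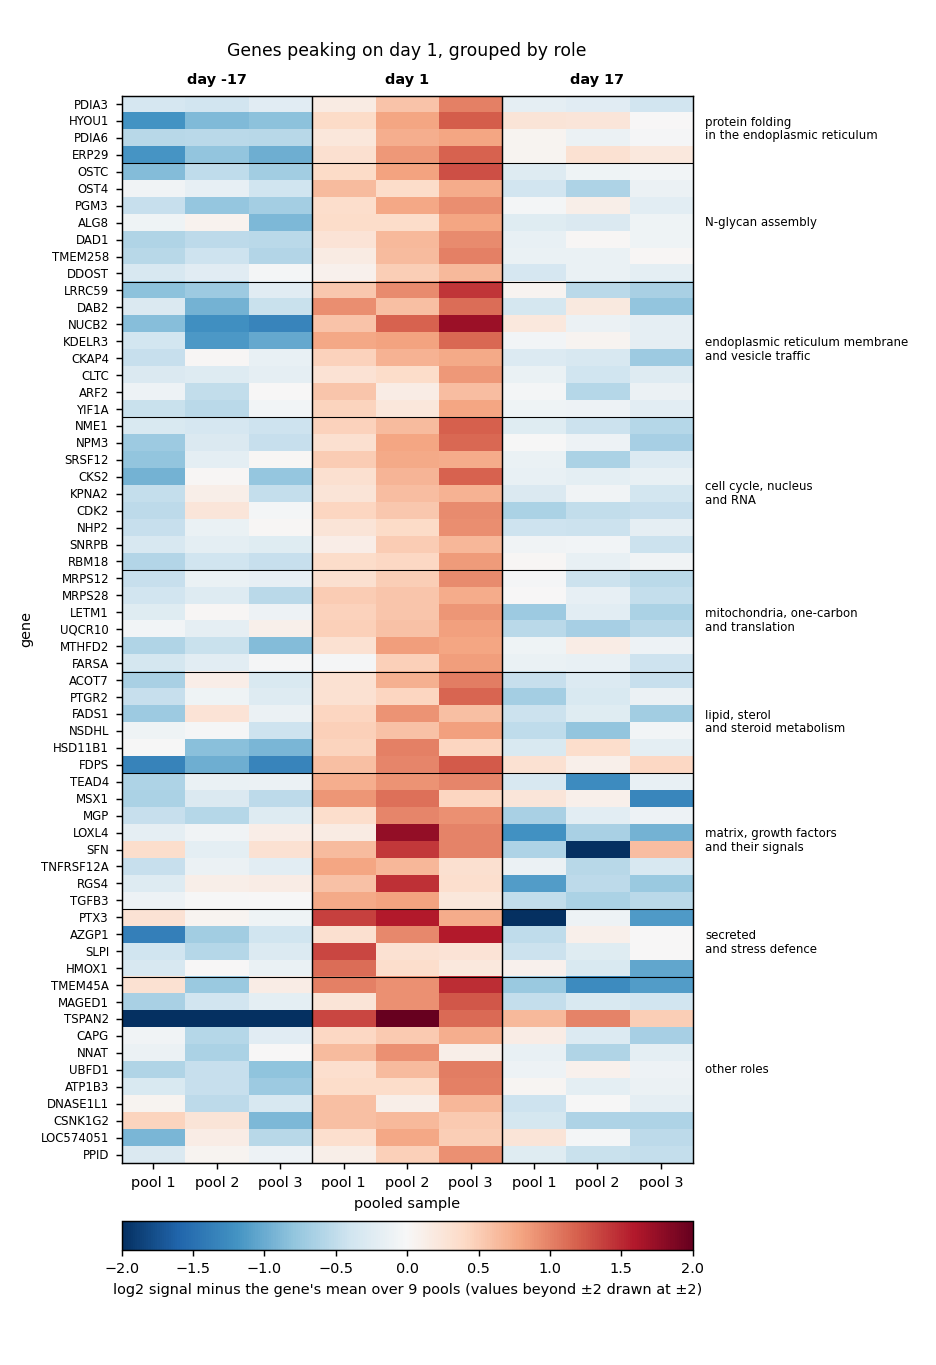
Log2 signal of each of the 63 genes (rows, grouped by textbook role and ordered by height of the peak) in the 9 pools (columns), as the difference from the gene's own mean over the 9 pools. All 3 day 1 columns are above the other 6 in every row because the rule required it. Within day 1, pool 3 holds the highest value in 45 rows.

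Over the 63 members the median log2 difference was 0.99 from day -17 to day 1 and 0.92 from day 17 to day 1. Over all tested probe sets these medians were -0.07 and 0.0092. The height of the peak, taken as the smaller of a gene's 2 differences, corresponded to between 1.52-fold and 2.56-fold with a median of 1.74-fold, and 13 members reached 2-fold. Most peaks were therefore modest in size. Members with a signal under 100 in all 3 pools numbered 4 on day -17 and 2 on day 17. The lowest day 1 value exceeded the highest value of the other days by 0.0024 to 0.83 log2, with a median of 0.25, so the separation was narrow for some members. At the limit itself, RBM18 (0.61), DDOST (0.60) and ERP29 (0.60) lay just inside, while YWHAZ (0.60, unrounded below the limit), SGK1 (0.58) and PNP (0.58) lay just outside.

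By textbook role, assigned after the values had been seen, 19 of the 63 members belong to the endoplasmic reticulum and vesicle traffic: 4 fold proteins in the endoplasmic reticulum, 7 assemble N-glycans and 8 sit in the membrane of the endoplasmic reticulum or in vesicle traffic, uptake by endocytosis included. The other 44 act in the cell cycle, nucleus and RNA handling (9), in mitochondria, one-carbon metabolism and translation (6), in lipid, sterol and steroid metabolism (6), in matrix, growth factors and their signals (8), in secreted and stress defence (4) and in other roles (11).

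Protein folding in the endoplasmic reticulum was represented by PDIA3, HYOU1, PDIA6 and ERP29. PDIA3, a disulfide isomerase that works on glycoproteins together with the lectin chaperones calnexin and calreticulin, had signals of 4387, 5849 and 7860.0 in day 1 pools 1, 2 and 3, against 3092, 3022 and 3338 on day -17 and 3455, 3342 and 3018 on day 17. The days on either side overlapped each other, and the day 1 mean lay 0.90 ± 0.18 log2 above day -17 and 0.84 ± 0.18 above day 17 (± SE of the limma fit, n = 3 pools per day, as below). HYOU1, a large chaperone that recharges HSPA5, gave 531, 662 and 691 on day -17, 1588, 2119.6 and 2840.3 on day 1 and 1460.0, 1451 and 1235 on day 17. All 3 of its day 17 values lay above all 3 of day -17, so its profile was a step with a crest on day 1 (1.77 ± 0.20 above day -17 and 0.62 ± 0.20 above day 17). ERP29, a luminal protein of the same fold family without the active cysteine pair, had 2211, 2916 and 2551 on day -17, 6292, 9205 and 11313 on day 1 and 5226, 6218 and 5784 on day 17. It had the same shape, and its lowest day 1 value exceeded its highest day 17 value by only 0.017 log2. PDIA6, another disulfide isomerase, had 3770.2, 3782 and 3760.1 in the day -17 pools, 6429.9, 9168 and 9577 on day 1 and 5716, 5082 and 5404 on day 17, with almost equal values on day -17.

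The other luminal disulfide isomerases and their relatives show how far this pattern reached among enzymes of the same kind; the list was chosen after the values had been seen. Of its 8 measured genes, 3 were members, and PDIA4, with day 1 differences of 1.21 ± 0.21 from day -17 and 0.91 ± 0.21 from day 17, met the limits and was left out by name. ERP44, which retains client proteins early in the secretory route, stood at 2619.5, 3206 and 3763 on day 1 and 3563, 3366 and 3354 on day 17, so these days overlapped (-0.12 log2). TXNDC12 also overlapped between day 1 and day 17 (-0.0038 log2), and TMX1 and TMX3 had day 1 differences from day -17 of -0.04 and -0.21.

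N-glycan assembly held 7 members, of which 5 are subunits of the oligosaccharyltransferase, the membrane complex that transfers the finished sugar chain to the growing protein. OSTC, which joins the complex to the translocon, had 2073, 2648 and 2337 on day -17, 4927, 6564 and 9212 on day 1 and 3176, 3562 and 3631 on day 17. Its 3 days did not overlap one another, and day 1 stood 1.51 ± 0.20 above day -17 and 0.95 ± 0.20 above day 17. DAD1, a small subunit of the core, gave 8847, 11474 and 14061 on day 1, against 4774, 5045 and 4984 on day -17 and 6602, 7425 and 6846 on day 17, again with no overlap between any pair of days. TMEM258, another small subunit, had 1665, 1849 and 1639 on day -17, 2751, 3798 and 4929.9 on day 1 and 2239, 2251 and 2494 on day 17, with all day 17 values above those of day -17. OST4, the smallest subunit, had 1186, 1107 and 947 in the day -17 pools, 1929, 1610.2 and 2095 on day 1 and 958, 817 and 1153 on day 17. DDOST, which helps to hold the sugar donor site together, had 4011, 5369 and 5987 on day 1, against 3054, 3264 and 3708 on day -17 and 3009, 3453 and 3334 on day 17. For OST4 and DDOST the day -17 and day 17 values overlapped.

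The remaining measured subunits did not meet the limits (members among measured subunits, 5 of 11; this list, too, was chosen after the values had been seen). The catalytic subunit STT3A, which acts as the protein enters the lumen, stood at 378, 483 and 383 on day -17, 915, 1035 and 1419 on day 1 and 697, 876 and 803 on day 17. Its day 1 pools all lay above the other 6, with a height of 0.49 log2 over day 17. STT3B, the catalytic subunit that can act later, was also highest on day 1 in every pool, 0.32 above day -17 and 0.44 above day 17. Its day 17 values did not pass against day -17 (-0.12, adjusted p = 0.446), whereas STT3A rose (0.94 ± 0.19, adjusted p = 0.00292). RPN1 stood 0.82 above day -17 and only 0.27 above day 17, where its values overlapped with day 1. KRTCAP2 was brightest on day 17, at 6468, 6430.0 and 6509 against 4168, 4065 and 4964 on day 1, and rose from day -17 to day 17 by 1.30 ± 0.11 (limma adjusted p = 2.38e-05). MAGT1 overlapped between day 1 and day 17 (-0.10 log2), and TUSC3, its paralogue, was brightest by mean on day -17 and fell to day 17 (-1.42 ± 0.21, adjusted p = 0.000503). Subunits of the complex therefore followed several courses, and the probe sets give no ratio between them.

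**Figure D2:**
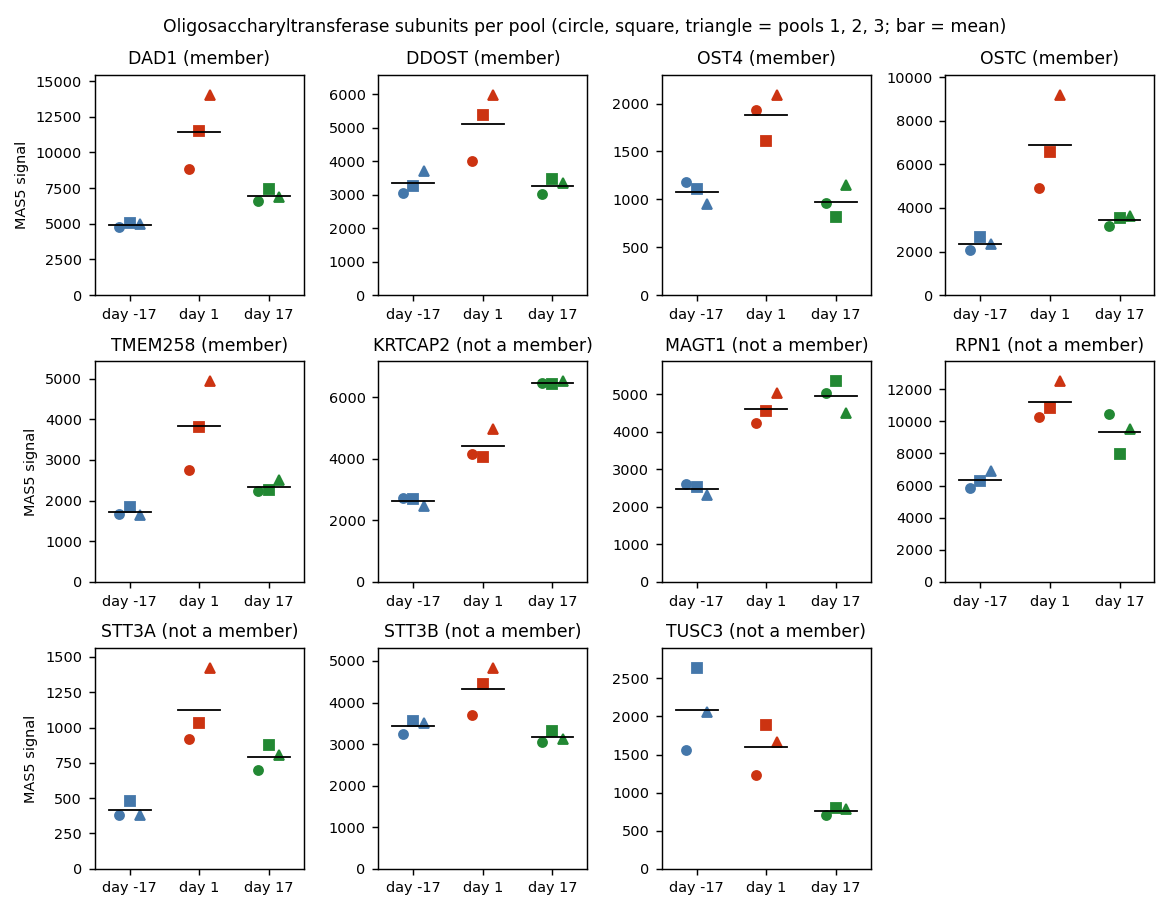
Signal (linear axis from 0) of the 11 measured oligosaccharyltransferase subunits in each pool on day -17, day 1 and day 17, with a bar at the mean of 3 pools. The 5 members crest on day 1, KRTCAP2 is brightest on day 17 and TUSC3, by mean, on day -17.

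Outside the complex, PGM3, an enzyme on the way to UDP-N-acetylglucosamine, had 663, 534 and 569 on day -17, 1166, 1549 and 1729.8 on day 1 and 881, 984 and 783 on day 17, with no overlap among the days. ALG8, which adds a glucose to the lipid-linked sugar chain, was dimmer, at 201, 225 and 114 in the day -17 pools, 277, 276 and 367 on day 1 and 181, 174 and 202 on day 17, and its days -17 and 17 overlapped.

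Among membrane proteins of the endoplasmic reticulum and of vesicle traffic were the 3 tallest peaks of these 19. LRRC59, a membrane protein that binds ribosomes, had the tallest peak of all 63: its signals were 1091, 1165 and 1640.2 on day -17, 2798, 3705 and 5215 on day 1 and 1989, 1326 and 1224 on day 17. The day 1 mean stood 2.56-fold above the nearer of the other days, which overlapped each other. DAB2, an endocytic adaptor for receptors of the LDL receptor family, gave 5731, 4568 and 6511 on day 1, against 2459, 1560.0 and 2223 on day -17 and 2354, 3436 and 1735 on day 17. NUCB2, a calcium-binding protein of the secretory route and the precursor of nesfatin, gave 1329.6, 1029 and 966 on day -17, 3572, 5459 and 7907 on day 1 and 2785, 2229 and 2135 on day 17. The outer days of DAB2 overlapped, whereas all 3 day 17 values of NUCB2 exceeded those of day -17. KDELR3, which returns escaped luminal proteins from the Golgi apparatus, stood at 1349, 787 and 854 in the day -17 pools, 2989.6, 3040.0 and 3844 on day 1 and 1673, 1813 and 1534 on day 17, with no overlap among the days. Its relatives KDELR1 and KDELR2 lay -0.01 and 0.24 log2 from their day 17 level on day 1 and were not members.

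CKAP4, which shapes the sheets of the endoplasmic reticulum, had 1476, 2058 and 1831 on day -17, 2798, 3282 and 3452 on day 1 and 1686, 1629 and 1223 on day 17. CLTC, the heavy chain of clathrin, had 6025, 6353 and 8986 on day 1, against 4048, 4098 and 4340.3 on day -17 and 4514, 3721 and 4105 on day 17. In both, the outer days overlapped. YIF1A, a carrier of cargo between the endoplasmic reticulum and the Golgi apparatus, stood 0.83 ± 0.18 above day -17 and 0.62 ± 0.18 above day 17, and ARF2, a small GTPase of vesicle budding named here after its values were seen, 0.64 ± 0.20 and 0.69 ± 0.20.

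The 9 members of the cell cycle, nucleus and RNA had peaks of 1.53-fold to 2.17-fold. NME1, a nucleoside diphosphate kinase, gave 918, 895 and 845 on day -17, 1554, 1757 and 2586 on day 1 and 950.4, 839 and 764 on day 17, so the outer days overlapped and every day 1 pool stood clear of them. NPM3, a histone chaperone of the nucleolus, gave 353, 479.8 and 425 on day -17, 729.5, 1006 and 1292 on day 1 and 579.5, 547 and 367 on day 17. CKS2, a small protein that binds cyclin-dependent kinases, ranged widely on day -17 (939.8, 1849 and 1066), stood at 2281, 2900.4 and 4120.3 on day 1 and was even on day 17 (1633, 1593 and 1642). CDK2, such a kinase, had 472, 802 and 657 in the day -17 pools, 909, 981 and 1297 on day 1 and 439, 479.6 and 492 on day 17, and its day -17 pool 2 came within 0.18 log2 of the lowest day 1 pool. KPNA2, an importin that carries proteins into the nucleus, stood 0.79 ± 0.19 above day -17 and 0.76 ± 0.19 above day 17. SRSF12, a splicing factor relative, NHP2, a protein of small nucleolar particles, RBM18, an RNA-binding protein, and SNRPB, a core protein of the spliceosome named after its values were seen, stood 0.99, 0.71, 1.03 and 0.69 above day -17.

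In mitochondria and translation, MTHFD2, an enzyme of mitochondrial one-carbon metabolism, had 454, 505 and 379 on day -17, 850.3, 1234 and 1190.1 on day 1 and 649, 766 and 644 on day 17, with no overlap between any days. UQCR10, a subunit of respiratory complex III, had the opposite order of the outer days, with 6083, 6582 and 7732 on day 1, against 4218, 3889.5 and 4696 on day -17 and 3035, 2759 and 3011 on day 17. Its day 17 pools were the lowest of the 9. MRPS12 and MRPS28, both of the small subunit of the mitochondrial ribosome, stood 0.84 ± 0.21 and 0.99 ± 0.17 above day -17 and 0.92 ± 0.21 and 0.81 ± 0.17 above day 17. LETM1, which handles cations at the inner membrane, stood 0.74 ± 0.21 and 1.16 ± 0.21 above the 2 days. FARSA, a subunit of the phenylalanine tRNA synthetase, had 1413, 1989 and 2573 on day 1. It was the member with the narrowest separation, since its lowest day 1 pool was 0.0024 log2 above the highest pool of the other days.

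Lipid, sterol and steroid metabolism held 6 members. FDPS, which makes farnesyl diphosphate on the way to cholesterol, was at 480.5, 615 and 485 on day -17, 1844, 2389 and 2837 on day 1 and 1491, 1292 and 1605 on day 17, so most of its difference from day -17 was still present on day 17. NSDHL, a later enzyme of cholesterol synthesis, was at 218, 228 and 173 on day -17, 321, 345 and 408 on day 1 and 162, 133 and 221 on day 17, with overlapping outer days. HSD11B1, which converts between inactive and active glucocorticoid, was at 3641, 2045 and 1942 in the day -17 pools, 4997, 7381 and 4914 on day 1 and 2956, 4681 and 3203 on day 17, and day 17 pool 2 came within 0.07 log2 of the lowest day 1 pool. FADS1, a fatty acid desaturase, was dim, with 108, 149.5 and 122 on day 1 and every other pool under 100. ACOT7, an acyl-CoA thioesterase, and PTGR2, a prostaglandin reductase, stood 0.95 ± 0.26 and 0.90 ± 0.23 above day -17.

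The 8 members of matrix, growth factors and their signals were mostly highest in pool 2 on day 1, which held the highest value in 6 of the 8. MGP, an inhibitor of calcification that is secreted into the matrix, gave 16257, 15047 and 18659 on day -17, 28299, 43605 and 42178 on day 1 and 14253, 19194 and 20729 on day 17. LOXL4, a lysyl oxidase relative that cross-links collagen and elastin, gave 634, 1916 and 1119 on day 1, against 496, 537 and 619 on day -17 and 244, 360.1 and 292 on day 17. Its day 1 pools spread from near the day -17 level, 0.034 log2 above its highest value, to well above it, and its day 17 pools were the lowest. RGS4, which shortens signalling by G protein-coupled receptors, gave 281, 363 and 371 on day -17, 502, 920.0 and 423 on day 1 and 154, 232 and 199 on day 17. The ligand TGFB3, named after its values were seen, gave 349, 375 and 378 in the day -17 pools, 636, 656 and 439 on day 1 and 268, 242 and 259 on day 17. Both RGS4 and TGFB3 were lowest on day 17. TNFRSF12A, the receptor of the cytokine TWEAK, gave 916, 832 and 662 on day 1, against 385, 485 and 457 on day -17 and 485, 357 and 424 on day 17.

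The transcription factors in this group were TEAD4, which acts with the cofactors of the Hippo pathway, and the homeobox gene MSX1. TEAD4 had 127, 176 and 179.8 on day -17, 319.8, 361 and 383 on day 1 and 155, 81.2 and 174 on day 17, and its gap between the lowest day 1 pool and the highest other pool, 0.83 log2, was the widest of all members. MSX1 was dim, at 51.5, 64.8 and 55.1 in the day -17 pools, 146, 171 and 107 on day 1 and 94.2, 85.1 and 32.2 on day 17. SFN, the epithelial adaptor stratifin, was also dim, and its day 17 pools, at 45.3, 6.09 and 106, spread so far that the standard error of its differences was 0.84 log2.

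Of the 4 members of secreted and stress defence, 2 were highest in day 1 pool 1, which was the highest in only 1 other member (TNFRSF12A). SLPI, a protease inhibitor of mucosal secretions, had 2066, 1826 and 2253 on day -17, 6896, 3369.5 and 3301 on day 1 and 2015, 2311 and 2738 on day 17. HMOX1, haem oxygenase, had 1073, 631 and 574 on day 1, against 395, 496 and 449 on day -17 and 522, 401 and 241 on day 17. In SLPI and HMOX1, pool 1 stood apart from pools 2 and 3 on day 1. PTX3, the long pentraxin that binds microbes and complement, had 441, 374 and 339 on day -17, 927, 1081 and 604 on day 1 and 55.8, 337 and 164 on day 17, with the lowest values on day 17. AZGP1, a zinc-binding glycoprotein of secretions, had 472, 751 and 925 in the day -17 pools, 1526, 2369 and 3668 on day 1 and 857, 1313 and 1229 on day 17, with pool 3 the highest on day 1.

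Other roles took in 11 members. TMEM45A, a membrane protein, had the second tallest peak with 644, 312 and 582 on day -17, 1051, 985 and 1456 on day 1 and 312, 219 and 241 on day 17. MAGED1, an adaptor of neurotrophin receptor signalling, had 3117, 4934 and 6176 on day 1, against 1672, 2008 and 2293 on day -17 and 1875, 2112 and 2012 on day 17, with overlapping outer days. TSPAN2, a tetraspanin of the cell membrane, had 87.2, 79.4 and 51.5 on day -17, 887, 1764 and 768 on day 1 and 552, 699 and 494 on day 17: it was under 100 in every pool of late pregnancy and stayed far above that on day 17. CSNK1G2, a signalling kinase, had 2361, 2073 and 931 in the day -17 pools, 2621, 2725 and 2483 on day 1 and 1359, 1125 and 1132 on day 17, and only its day -17 pool 3 was near the day 17 level. UBFD1, a ubiquitin-domain protein, CAPG, which caps actin filaments, and ATP1B3, a beta subunit of the sodium pump, stood 1.29, 0.85 and 1.08 above day -17 and 0.71, 0.82 and 0.68 above day 17. NNAT, a proteolipid of the endoplasmic reticulum in endocrine and nerve cells, and DNASE1L1, a nuclease relative, stood 0.87 and 0.66 above day 17. PPID, a peptidyl-prolyl isomerase, and the uncharacterised locus LOC574051, both named after their values were seen, stood 0.89 and 0.64 above it.

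**Figure D3:**
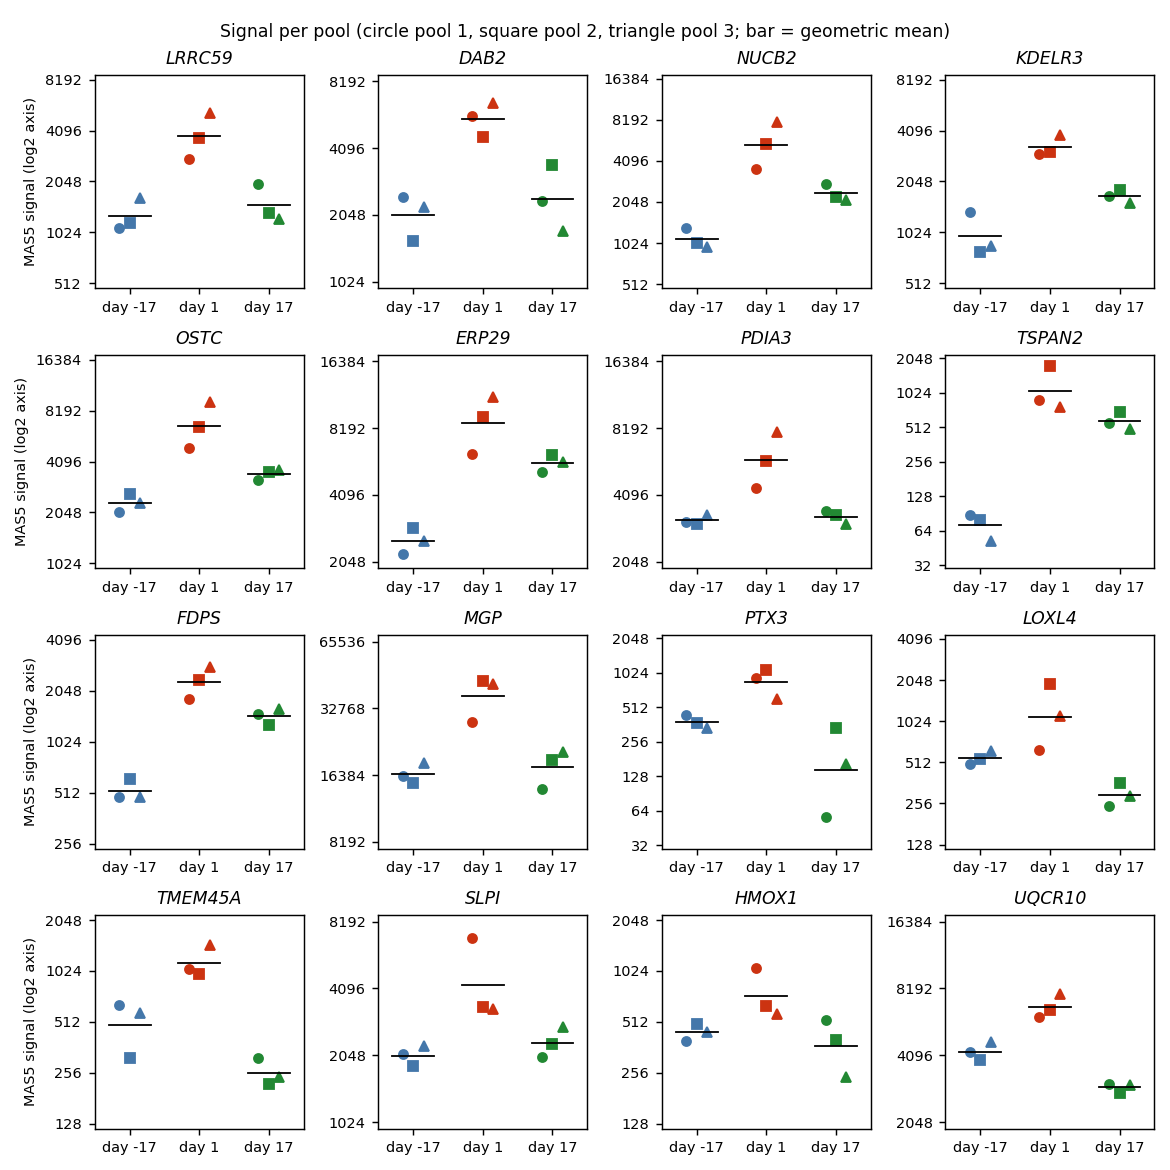
Signal (log2 axis) of 16 members in each pool on the 3 days, with a bar at the geometric mean of 3 pools. ERP29, NUCB2, KDELR3, OSTC, FDPS and TSPAN2 were higher on day 17 than on day -17, PTX3, LOXL4, TMEM45A and UQCR10 were lower, and SLPI and HMOX1 have day 1 pool 1 well above pools 2 and 3.

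Whether the members returned to their late pregnancy level was asked by comparing day 17 with day -17. By limma with Benjamini-Hochberg adjustment over all 15519 tested probe sets, 13 of the 63 members (20.6%) were higher on day 17, 6 (9.52%) were lower and 44 did not pass at 0.05. Over all tested probe sets 21.7% were higher and 24.8% were lower, and over the 4634 genes bright on day 1 the shares were 24.1% and 24.9%. These shares are printed for reference only: the rule held both outer days below day 1, which limits how far they can lie apart in members and not in other genes, so nothing is read from the members' share against them. The median difference over members was 0.03, against -0.08 over all tested probe sets. A difference that did not pass is not shown to be absent: the standard errors of the members ran from 0.13 for UQCR10 to 0.84 for SFN.

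The 13 that rose were TSPAN2, FDPS, ERP29, HYOU1, NUCB2, KDELR3, MTHFD2, PGM3, UBFD1, OSTC, PDIA6, DAD1 and RBM18. Of the 19 members of the endoplasmic reticulum and vesicle traffic 8 rose and 0 fell, and of the other 44 members 5 rose and 6 fell. Over all tested probe sets 21.7% were higher and 24.8% lower. The roles were assigned after the values had been seen, and nothing is read from this split. Rises were also common on whole lists, with 13 of 23 genes for protein folding and 17 of 31 for N-glycan assembly. TSPAN2 was 8.12-fold higher on day 17 than on day -17 (log2 3.02 ± 0.32, adjusted p = 7.11e-05), FDPS 2.78-fold (1.48 ± 0.18, 0.000168), ERP29 2.25-fold (1.17 ± 0.20, 0.0011) and HYOU1 2.21-fold (1.14 ± 0.20, 0.00152). These, NUCB2 (1.11 ± 0.26, adjusted p = 0.00566) and KDELR3 (0.79 ± 0.20, 0.00945) kept their calls when any 1 of the 9 pools was left out. The day -17 signals of TSPAN2 were near or under the filter level, so the size of its fold is uncertain. With a pseudocount of 16 its log2 difference was 2.76. For the other 7 of the 13 the calls were lost without at least 1 pool. PDIA6 (0.52 ± 0.15) was lost without day 17 pool 1 (adjusted p = 0.0576), and MTHFD2 (0.63 ± 0.18) and UBFD1 (0.58 ± 0.18) without day -17 pool 3 or day 17 pool 2 (up to 0.0693 and 0.0867). DAD1 (0.49 ± 0.15) was lost without day -17 pool 1 or 3 or day 17 pool 2 or 3 (up to 0.0778), and PGM3 (0.58 ± 0.17) without day -17 pool 2 or 3 or day 17 pool 1 or 2 (up to 0.0729). OSTC (0.56 ± 0.20) was lost in 6 of the 9 cases and RBM18 (0.42 ± 0.15) in all 6 that left out a pool of day -17 or day 17 (up to 0.12 and 0.123). Leaving out either day -17 pool 3 or day 17 pool 2 lowered the count of rises to 7.

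The 6 that fell were UQCR10, TMEM45A, TGFB3, RGS4, LOXL4 and PTX3. UQCR10 was 1.45-fold lower on day 17 than on day -17 (-0.54 ± 0.13, adjusted p = 0.00598), which held when any 1 pool was left out. TMEM45A fell by more (-0.94 ± 0.28, adjusted p = 0.0184) but was lost without day -17 pool 1 or 3 or day 17 pool 2 or 3 (up to 0.0682). PTX3 (-1.39 ± 0.52, adjusted p = 0.0481) had the widest error of the 6, and its value rested on single pools: it was -0.70 without day 17 pool 1 (adjusted p = 0.126) and -1.998 without day 17 pool 2 (0.00634). Its call was lost in 8 of the 9 cases, all but the latter. LOXL4 (-0.90 ± 0.33, 0.0479) was lost in 7 of the 9 cases (up to 0.142), RGS4 (-0.80 ± 0.28, 0.0406) without day -17 pool 2 or 3 or day 17 pool 1 or 3 (up to 0.133), and TGFB3 (-0.52 ± 0.18, 0.0355) in all 6 that left out a pool of day -17 or day 17 (up to 0.0944). The count of falls was 3 without day -17 pool 1 or day 17 pool 2 and 2 without any other 1 pool of these days. Not all of these were among the 6 named. Without day -17 pool 1, 2 of the 3 were, and without day 17 pool 2 all 3 were. Without day -17 pool 3 or day 17 pool 3, only 1 of the 2 was.

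These directions depend on the scaling of the arrays. With scaling to the E. coli controls, TSPAN2 alone remained called as higher (1.72), FDPS stayed above day -17 without passing (0.17), the other 11 turned to below day -17, and 57 of the 63 members were called as lower. That scaling leaves every member's day 1 mean above both other days, since the smallest difference from day -17 was 0.60 and the shift is 0.43. It still changes which genes meet the limits: 121 genes did, among them 25 of the 63. Quantile normalization ended the calls of DAD1, OSTC, LOXL4, PTX3, RGS4 and TGFB3, and median centring those of the last 4. Testing with no filter or without the intensity trend ended those of OSTC, RBM18, LOXL4, PTX3 and RGS4, and no filter also that of TGFB3. A pseudocount of 16 ended that of LOXL4 and a fit of the 6 outer arrays that of PTX3, and the adjusted p of all these was 0.0945 at most.

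**Figure D4:**
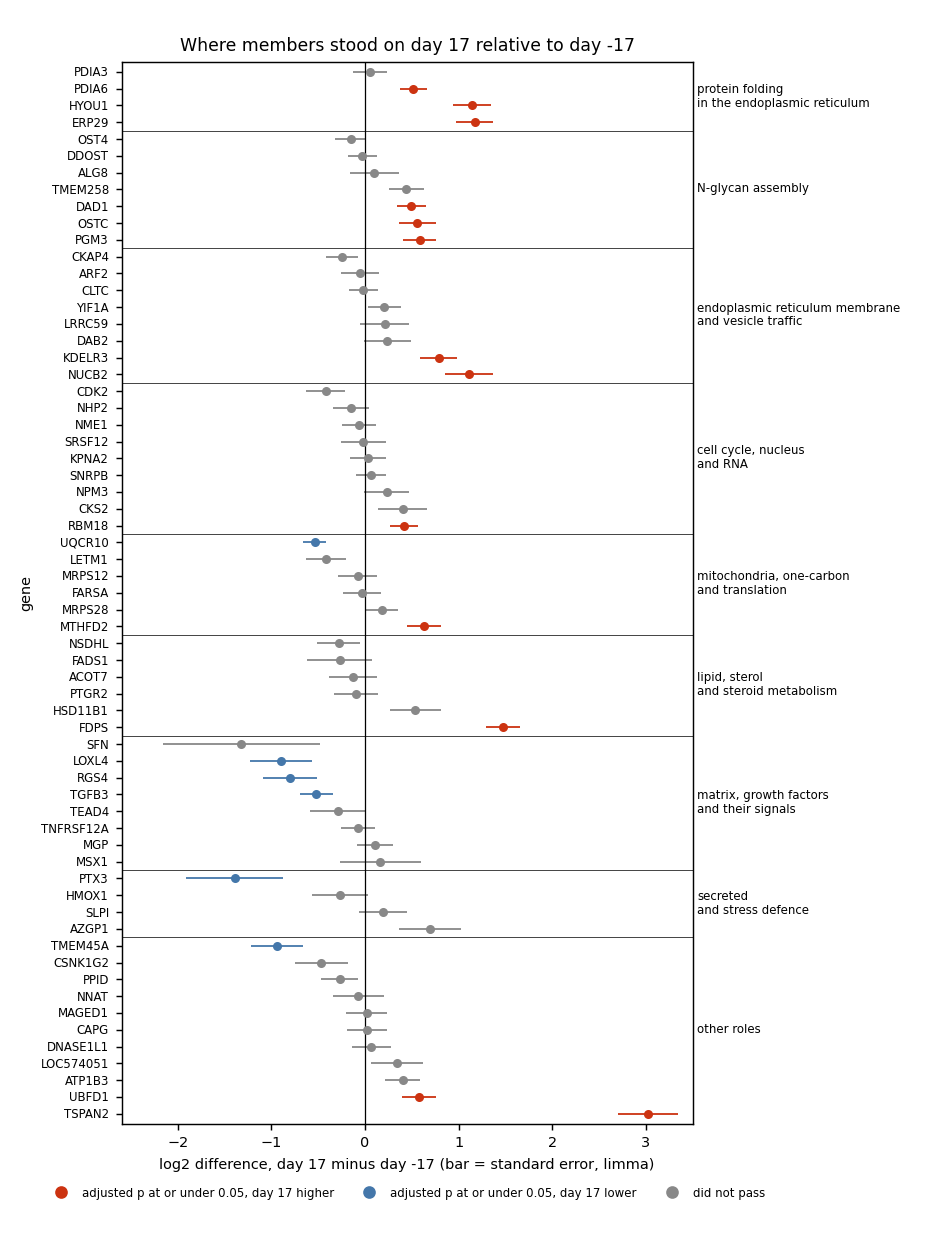
Log2 difference of day 17 from day -17 for the 63 members (points, with the standard error of the limma fit, n = 3 pools per day), grouped by role. Of the 63, 13 passed as higher (red) and 6 as lower (blue) under the deposited scaling; scaling to the E. coli controls would move every point 1.30 to the left.

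The 3 day 1 pools were not alike in the members. Pool 3 had the highest day 1 value in 45 of 63 members (71.4%), pool 2 in 15 and pool 1 in 3, whereas pool 3 was the highest in 39% of the 4634 genes bright on day 1 and in 32.3% of all tested probe sets. The rule asks that the lowest day 1 pool be above the other days but sets no order among the pools. It used these same day 1 values, however, and a high pool raises the day 1 mean. The pool shares of the members are therefore a description and not a test. All 19 members grouped under the endoplasmic reticulum and vesicle traffic were highest in pool 3, and the other 44 were so in 26 cases. That split rests on groups drawn after the values were seen, and other groupings would change it. The 19 include the endocytic adaptor DAB2 and the clathrin chain CLTC. NNAT is 1 example among the 44 of a protein that also sits in the endoplasmic reticulum. Its day 1 values of 244, 297 and 171 were lowest in pool 3. Protein folding genes had medians of -0.42, 0.04 and 0.40 log2 in pools 1, 2 and 3 relative to the mean of the 3, and N-glycan genes -0.33, 0.03 and 0.27. The medians of the 4 defence genes had the reverse order, with 0.34, -0.10 and -0.36, but only SLPI and HMOX1 ran that way. AZGP1 rose from pool 1 to pool 3, and PTX3 was highest in pool 2. A rise from pool 1 to pool 3 was not particular to the members. The whole list for protein folding in the endoplasmic reticulum summed to 84850, 103800 and 116600 in day 1 pools 1, 2 and 3. Genes for milk proteins and the milk fat globule, none of them a member, summed to 317500, 400800 and 446100. The list of early response and stress regulators ran the other way, with 85020, 79880 and 65350.

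Marker sums of cell types also differed among the day 1 pools. The 17 luminal epithelial markers summed to 30750 in pool 1, 46040 in pool 2 and 49870 in pool 3, and the 15 fibroblast markers to 144500, 67520 and 89280. Macrophage markers (10 measured) summed to 19900, 9827 and 7387, adipocyte markers (11) to 32470, 18330 and 19270, endothelial markers (11) to 11170, 8389 and 7266, and markers of myoepithelium and smooth muscle (9) to 52680, 53610 and 40970. Pool 1 was thus lowest in luminal and highest in fibroblast, macrophage, adipocyte and endothelial markers. Among these lists RETN, FLT1, KDR and ITGAM were below the filter level on all arrays. The part of tissue makeup in the members' day 1 values was not tested. Without day 1 pool 1, 123 genes met the limits, including 58 of the 63. Without day 1 pool 3, 58 genes did, including 41 of the 63. In both cases fewer day 1 values had to lie above the other days, which by itself loosens the rule.

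**Figure D5:**
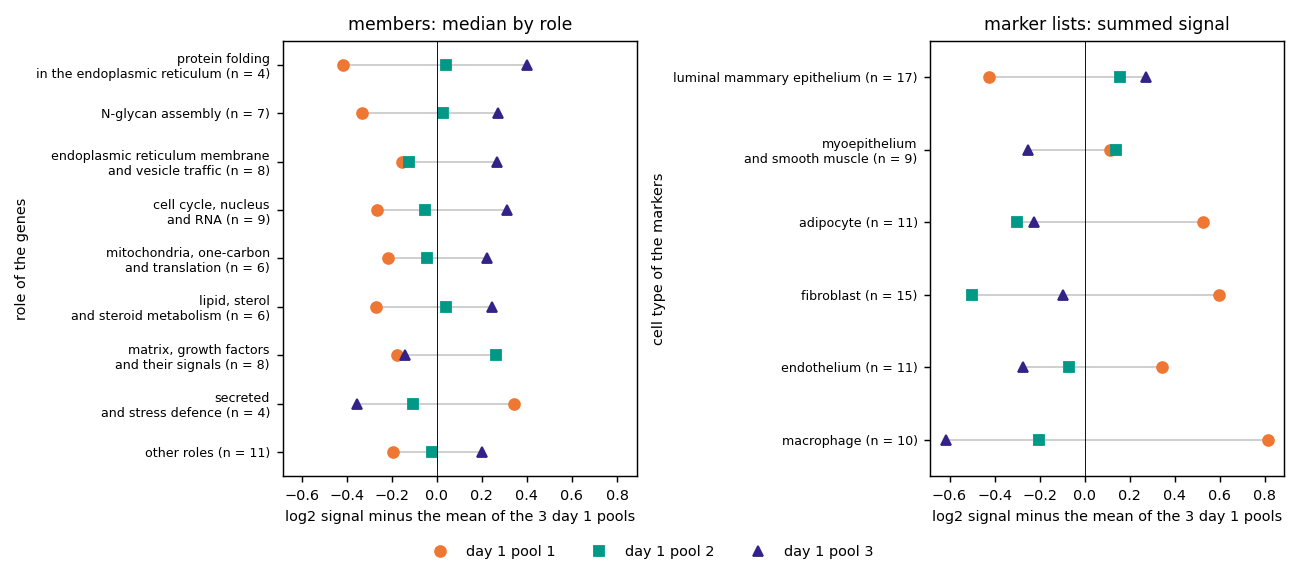
Log2 signal in the 3 day 1 pools relative to their mean, as the median over members of each role (left) and for the summed signal of cell type markers (right), with n the number of genes. In 7 of the 9 roles pool 3 lies to the right, as it does for luminal epithelial markers, while pool 1 lies to the right for defence genes and for fibroblast, adipocyte, endothelial and macrophage markers.

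A stricter demand is that every pool number show the peak on its own. Taking the pool number as a block, with day 1 at least 0.6 above both other days for each of the 3 numbers, left 15 members. With any 1 pool left out, 32 of the 63 met the limits in all 9 cases.

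Other probe sets for the same genes gave a reading that the rule had not used, though on the same RNA. Of the members, 27 had 35 other probe sets, and 24 of these, from 20 members, were bright enough to be tested. All 3 day 1 values lay above the other 6 in 9 of the 24 (37.5%), against 2.75% of all tested probe sets, and in 8 (33.3%) the day 1 mean was also at least 0.6 above both days, against 0.896%. The day 1 mean was above both other days in 18 and below both in 2. The 2 other probe sets of DAB2 both repeated the peak, 1 of them with 2002, 2041 and 2144 on day 1, against 576, 272 and 384 on day -17 and 1240.4, 1727 and 1015 on day 17. A second PDIA3 probe set gave 169, 150.1 and 129 on day -17, 279, 314 and 318 on day 1 and 84.4, 115 and 117 on day 17. In another PDIA3 probe set day 1 and day 17 overlapped, with day 1 pool 2 at 164 and day 17 pool 1 at 177. The other RBM18 probe set overlapped too, at 1513, 1604 and 2398 on day 1 and 942, 1267 and 1858 on day 17.

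Probe sets that went against the member's own were found for NHP2, UBFD1, NSDHL and KDELR3. The other NHP2 probe set was lowest on day 1, at 229, 238 and 215 against 372, 469.6 and 585 on day -17, and that of UBFD1 was at 131, 106 and 120.2 on day 1 against 184, 154 and 215 on day 17. For NSDHL the other probe set had 236, 127 and 317 on day 1 and 296, 238 and 300.1 on day 17, so the day 17 values were not lower. KDELR3 had 1 other probe set with the peak and 1, dimmer, without it (-0.21 log2 from day 17 to day 1). Dim other probe sets of CLTC and ARF2 also stood lower on day 1 than on day 17 (-0.19 and -0.11). The peaks of NHP2, UBFD1 and NSDHL thus depend on the probe set.

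Gene lists of cell functions show where the members lie, beside the 1.36% of all bright genes that were members. The lists were chosen with earlier results of these data known, so the shares are a description. Of 23 bright genes for protein folding and quality control in the endoplasmic reticulum 4 were members (17.4%), and of 29 for N-glycan assembly and sugar nucleotides 5 (17.2%). For cholesterol synthesis it was 2 of 16 (12.5%), FDPS and NSDHL, for tRNA synthetases not left out by name 1 of 12 (8.33%), FARSA, and for the amino acid response and one-carbon synthesis 1 of 15 (6.67%), MTHFD2. Lists with smaller shares were early response and stress regulators (2 of 36, SLPI and HMOX1), nucleotide synthesis (1 of 20, NME1), vesicle coats and Golgi traffic (3 of 61, NUCB2, KDELR3 and YIF1A), acute phase and innate defence (1 of 21, PTX3), nuclear transport (1 of 25, KPNA2), nucleolus and ribosome assembly (2 of 54, NHP2 and NPM3) and the cytoskeleton (1 of 34, CAPG). No member came from the lists for milk proteins and the milk fat globule (16 bright genes), mitochondrial import and gene expression (35), ubiquitin conjugation (26), cytosolic chaperonin (18), glycolysis (17) or prolactin and STAT signalling (11).

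Counted over whole lists, members included, calls between day -17 and day 17 can be read beside the 21.7% higher and 24.8% lower of all tested probe sets. On the folding list 13 of 23 genes rose from day -17 to day 17 (median of the list 0.81), 3 fell and 7 did not pass, and the median by which day 1 exceeded day 17 was 0.16. On the N-glycan list 17 of 31 rose (median 0.56), 2 fell and 12 did not pass, and day 1 exceeded day 17 by a median of 0.23. The E. coli scaling, 1.30 lower, would put the day 17 medians of these lists below day -17. On the cholesterol list 13 of 16 rose (median 1.64) and 0 fell, and of the milk genes 15 of 16 rose (median 3.20). Day 1 minus day 17 had a median of -0.20 on the cholesterol list and -0.80 among the milk genes, which the E. coli scaling, with its shift of 0.87, would turn above 0. On the nucleolus list 6 of the 55 tested rose, 13 fell and 36 did not pass.

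The members were not neighbours in the genome. In the RefSeq gene table of the pig assembly Sscrofa11.1, 62 members were matched, 0 pairs of members were next to each other, and 1 pair, FADS1 and TMEM258, lay 2 places apart.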

How the data were processed

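The deposited values are intensities: 1 linear signal for each probe set on each array, for which the submitters' processing notes name MAS5 without a version. The mean after trimming was 500.088 to 500.112 on every array. Of 24123 probe sets, 124 controls were left out; 10099 had 1 symbol in the platform annotation, 198 several and 13826 none. Signals were taken to log2 without a pseudocount. Arrays have no depth, and their number limits the precision.

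Tested were probe sets whose signal reached the array's 40th percentile (82.1 to 94.2) on 3 or more of the 9 arrays, 15519 in all with all 63 members among them. All arrays were fitted with limma 3.58.1 in R 4.3.3 (lmFit, eBayes with trend), day as the only term, two-sided, adjusted by Benjamini-Hochberg at 0.05. The code was tested on simulated data.

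Same-numbered pools of day -17 and day 17 had weak correlations of deviations of 0.105 to 0.130, and other pairs -0.0739 to -0.0421. Deviations cancel over the pools of a day, so positive same-numbered values make the other pairs negative on average. The negative values therefore add no separate evidence. Same-numbered pools may thus share sows, which the labels do not say. The main fit left out this pairing and the repeated sampling of the sows, and the pool number served as a block only in alternatives. For day -17 and day 1 the values were 0.235 to 0.506 and -0.387 to 0.113, and for day 1 and day 17 0.0960 to 0.107 and -0.0768 to -0.0268.

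Members and lists were chosen with earlier results of these data known. Genes were named by height of the peak (15), by list (up to 4 each), by largest called difference (4 each way), at the limit (3 each side), by opposing probe sets (up to 4), and then by role (up to 20 more), which named 58 of 63. Alternatives were other scalings, a pseudocount of 16, other filters and limits, no trend, the 6 outer arrays alone, the pool number as block, probe set means and leaving out each pool. Promoter motifs, planned as a further description, were not analysed here.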

Additional observations from a re-analysis of the deposited data

How the results depend on the processing

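The count of 63 members became 121 with E. coli scaling, 109, 30 and 13 with limits of 0.4, 0.8 and 1, and 15 with the pool number as a block. Leaving out 1 pool gave 58 to 123. Other scalings, minimum signals of 50 or 200 and probe set means gave 48 to 75. The 13 rises from day -17 to day 17 became 1 with E. coli scaling, 5 at a minimum of 2-fold and 7 to 15 with 1 pool left out. The 6 falls became 2 after quantile normalization, 2 after median centring, 57 with E. coli scaling, 2 with no filter, 3 without the trend, 1 at a minimum of 2-fold and 2 to 5 with 1 pool left out. Some of the counts with 1 pool left out include genes that were not among the 13 or the 6. Over all tested probe sets E. coli scaling gave 471 rises and 12685 falls, and 11 member genes reversed: DAD1 (-0.81), ERP29 (-0.13), HYOU1 (-0.16), KDELR3 (-0.52), MTHFD2 (-0.68), NUCB2 (-0.19), OSTC (-0.74), PDIA6 (-0.79), PGM3 (-0.72), RBM18 (-0.89) and UBFD1 (-0.72). That scaling subtracts 1.30 from each difference. The cause of the other changes was not tested, apart from limits, minimum signals and fold minimums, which admit more or fewer genes by construction. Leaving out a pool also loosens the rule for members by construction, because fewer values have to be separated. With the pool number as a block, a fixed term gave 14 rises and 6 falls and a random one 13 and 6. Signals near or under 100, as of FADS1, MSX1 and SFN and of TSPAN2 on day -17, lie close to or below the filter level. This limits what their differences can show.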
